A study of Mus musculus with 16 samples.

Results

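Reads on 10 genes of the pituitary hormone axis were followed through 16 libraries of sorted mouse sensory neurons, in which 22609 genes were listed. The genes were 5 hormone genes (Prl, Gh, Pomc, Cga and Lhb), the corticotroph lineage factor gene Tbx19, the prohormone convertase genes Pcsk1 and Pcsk2, and the receptor genes Prlr and Ghr. They were chosen by symbol, with the reads on Prl, Gh and Pomc in trigeminal ganglion (TG) libraries already known, so differences of these genes between TG and the other ganglia are given below as a description without a test.

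The pituitary makes these hormones in separate cell types. Lactotrophs make prolactin (PRL), somatotrophs make growth hormone (GH), corticotrophs and melanotrophs cut proopiomelanocortin (POMC) into peptides, and gonadotrophs and thyrotrophs pair a common alpha subunit (Cga) with a hormone-specific beta subunit such as Lhb. POU1F1 drives the lactotroph and somatotroph lineages and TBX19 drives Pomc transcription in corticotrophs, while the convertases encoded by Pcsk1 and Pcsk2 cleave POMC to corticotropin, melanotropins and beta-endorphin inside secretory granules. PRL and GH act through related cytokine receptors that signal through JAK2 and STAT proteins. In sensory neurons the prolactin receptor is known for a part in pain.

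All mice carried Pirt cre/- and Rosa26 LSL-tdTomato/+ on C57BL/6J, were untreated, labelled male and 8 to 12 weeks old, and differed between groups only in the ganglion taken. Pirt drives the recombinase in sensory neurons, and brightly TdTomato+ cells were sorted in bulk in a pair of passes, so each library is a mixture of cells. There were 4 libraries each from TG, the nodose and jugular ganglion complex (NG/JG), dorsal root ganglia of levels L3-L5 and dorsal root ganglia of levels T10-L1 (DRG). The labels do not say whether libraries of a group came from separate animals, so p-values measure only the spread between these libraries, which may be technical.

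Libraries held 4735624 to 13333318 reads on genes, and values are given as reads or as CPM, the reads on a gene scaled to a library total of 1000000 reads on genes. At 0 reads a library allows up to 3 reads, or 0.225 to 0.633 CPM, and such limits cover counting error only. Sensory neurons were present in every library, since all 12 sensory neuron markers had more than 3 reads in each of the 16 and Pirt stood at 16.8 to 308 CPM. All 16 libraries held 1279 to 8362 reads on Xist and 0 reads on 12 chromosome Y genes, against the male label. TG library 1 stood apart from the other TG libraries, with 11527 genes read against 14441 to 15354. Library 4 of L3-L5 DRG had the fewest reads on genes and the most genes read, 18571, and 66.9% of its uniquely aligned reads lay on no single gene, against 30.2% to 51.9% in the other 15 libraries.

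The upstream sequences show how the hormone genes differ where transcription starts. Of the 10 genes, 9 had an entry in the RefSeq promoter table (GRCm38.p6, a later build than the mm9 of the counts), and Gh was not among them. The 250 bases before the start are printed for the 2 hormone genes with many reads in TG, Prl and Pomc, and for the 2 that were almost unread, Cga and Lhb. Capitals mark letters that match the box TATAAA on either strand. They also mark, on either strand, a motif of the factor POU1F1, which reads TATNCAT, and overlapping matches run together. All 4 lie on the plus strand, Prl at chr13:27057320-27057569, Pomc at chr12:3954695-3954944, Cga at chr4:34893529-34893778 and Lhb at chr7:45420696-45420945.
Prl: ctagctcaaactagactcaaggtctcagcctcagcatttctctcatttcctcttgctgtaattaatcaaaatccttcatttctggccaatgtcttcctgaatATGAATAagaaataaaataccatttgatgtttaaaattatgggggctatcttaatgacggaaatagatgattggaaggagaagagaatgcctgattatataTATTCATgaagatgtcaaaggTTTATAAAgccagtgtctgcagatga
Pomc: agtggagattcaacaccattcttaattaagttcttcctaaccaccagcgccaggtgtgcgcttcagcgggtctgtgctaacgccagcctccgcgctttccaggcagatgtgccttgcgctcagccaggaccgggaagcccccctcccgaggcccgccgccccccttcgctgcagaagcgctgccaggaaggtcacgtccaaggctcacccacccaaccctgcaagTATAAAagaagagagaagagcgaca
Cga: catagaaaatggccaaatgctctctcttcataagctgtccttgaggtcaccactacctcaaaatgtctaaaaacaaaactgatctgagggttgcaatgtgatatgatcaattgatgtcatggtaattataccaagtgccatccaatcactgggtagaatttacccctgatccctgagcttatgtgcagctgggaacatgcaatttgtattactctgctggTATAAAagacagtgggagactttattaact
Lhb: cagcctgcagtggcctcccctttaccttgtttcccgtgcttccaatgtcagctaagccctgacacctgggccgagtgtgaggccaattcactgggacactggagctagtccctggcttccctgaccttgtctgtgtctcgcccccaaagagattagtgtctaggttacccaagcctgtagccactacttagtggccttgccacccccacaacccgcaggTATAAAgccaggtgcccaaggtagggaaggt
All 4 held TATAAA, starting 24 bases before the start in Prl, 25 in Pomc, 30 in Cga and 31 in Lhb. In Prl a match on the minus strand overlapped it. TATAAA was in 12.4% of the 32851 promoters of this length. TATNCAT was in Prl alone among these 4, with 2 matches, and in 7.92% of all promoters. The T-box half-site TCACACC, in 3.33% of all promoters, was in none of the 4. A match is only a match of letters, and sites of these factors outside the window were not looked at.

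Prl, Gh and Pomc were read almost wholly in TG libraries. Of all reads in the series on each gene, TG libraries held 99.5% for Prl (53014 of 53303), 99.3% for Gh (5553 of 5592) and 98.2% for Pomc (10209 of 10401). These shares belong to the values that chose the genes. In bulk libraries, fewer cells of a type and less RNA per cell cannot be told apart.

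Prl (chr13:27149439-27157073 in mm9, plus strand) encodes prolactin. TG libraries 1 to 4 held 437, 3145, 49211 and 221 reads, or 55.5, 619, 8455 and 38.8 CPM. The 12 other libraries held 8 to 40 reads each, with a mean of 2.97 ± 2.07 CPM (SD, n = 12). Every TG library lay above every other library, yet the TG libraries differed among themselves by a factor of 218. In TG library 3 Prl was the 8th most counted gene and took 0.846% of the reads (95% exact binomial interval 0.838% to 0.853%). Library 3 carried the mean of TG, which was 2292 ± 4118 CPM (SD, n = 4) with it and 238 CPM without it. The ratio of the TG mean to that of the other 12 libraries was 772.

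Prl was the only one of the hormone genes with more than 3 reads in all 16 libraries. The 4 libraries of NG/JG held 22, 13, 33 and 8 reads, those of L3-L5 DRG 23, 27, 24 and 40, and those of T10-L1 DRG 30, 20, 27 and 22. The 26 related prolactin family genes, most of them known from placenta, were not read with it. In TG libraries 25 of the 26 were at 0 and Prl4a1 had 2 reads in library 4. Across the other ganglia their summed reads were 0 to 3 in each of 10 libraries, 16 in T10-L1 DRG library 1 and 85 in L3-L5 DRG library 4, where 8 of the 26 passed 3 reads.

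Gh (chr11:106161585-106163179, minus strand) encodes growth hormone. Its reads in TG libraries 1 to 4 were 105, 2615, 2683 and 150 reads, or 13.3, 514, 461 and 26.3 CPM. NG/JG libraries held 0, 0, 2 and 2 reads, L3-L5 DRG libraries 2, 5, 1 and 17, and T10-L1 DRG libraries 2, 2, 1 and 5. Every TG library lay above every other library, with libraries 2 and 3 high and libraries 1 and 4 low. The TG mean, 254 ± 271 CPM (SD, n = 4), was at least 684-fold above NG/JG, taken at 3 reads per library. The mean was 0.121 ± 0.142 CPM in NG/JG, 0.238 ± 0.129 in T10-L1 DRG and 1.09 ± 1.68 in L3-L5 DRG (SD, n = 4 each), and most of these libraries were at or under 3 reads.

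Pomc (chr12:3954951-3960618, plus strand) encodes the precursor of corticotropin, the melanotropins and beta-endorphin. In TG libraries 1 to 4 there were 2616, 4163, 3398 and 32 reads on it, or 332, 819, 584 and 5.62 CPM. NG/JG libraries held 29, 2, 39 and 5 reads, L3-L5 DRG libraries 13, 6, 5 and 40, and T10-L1 DRG libraries 23, 3, 20 and 7. Here the groups overlapped, because TG library 4 at 5.62 CPM (95% exact interval 3.84 to 7.93) lay below L3-L5 DRG library 4 at 8.45 CPM. The other 3 TG libraries lay above all 12 other libraries. L3-L5 DRG library 4 was also the highest non-TG library for Prl and for Gh, and it is the library with reads on placental prolactin genes described above. The part of its background in these counts was not tested.

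The alpha subunit and the LH beta subunit were not read as the other hormones were. Cga (chr4:34841028-34854619, plus strand) had 0 reads in 15 libraries, all TG libraries included, and 3 in T10-L1 DRG library 1, and 32.0% of its exon length is shared with 2410114N07Rik. Lhb (chr7:52673723-52677224, plus strand) had 6 reads in TG library 3, 1 in L3-L5 DRG library 4 and 0 in the other 14. Per exon length (RPKM, CPM divided by the exon length in kilobases), the mean levels in TG were 2561 for Prl, 432 for Pomc, 294 for Gh and 0.103 for Lhb. Library 3 set the first place, since without it the means were 266 RPKM for Prl and 383 for Pomc.

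Tbx19 (chr1:167067986-167090904, minus strand) encodes the T-box factor of corticotrophs. TG libraries 1 to 4 held 397, 33, 5 and 0 reads, or 50.4, 6.49, 0.859 and 0 CPM. Among the other 12 libraries, NG/JG library 1 held 1 read, L3-L5 DRG library 4 held 3 and the rest 0. Of the 4 TG libraries 3 therefore passed 3 reads and no other library did, while TG library 4 could not be told from the other ganglia. The TG mean was 14.4 ± 24.1 CPM (SD, n = 4), at least 41.5-fold above the other 12 libraries taken at 3 reads each, and was 2.45 CPM without library 1.

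**Figure D1:**
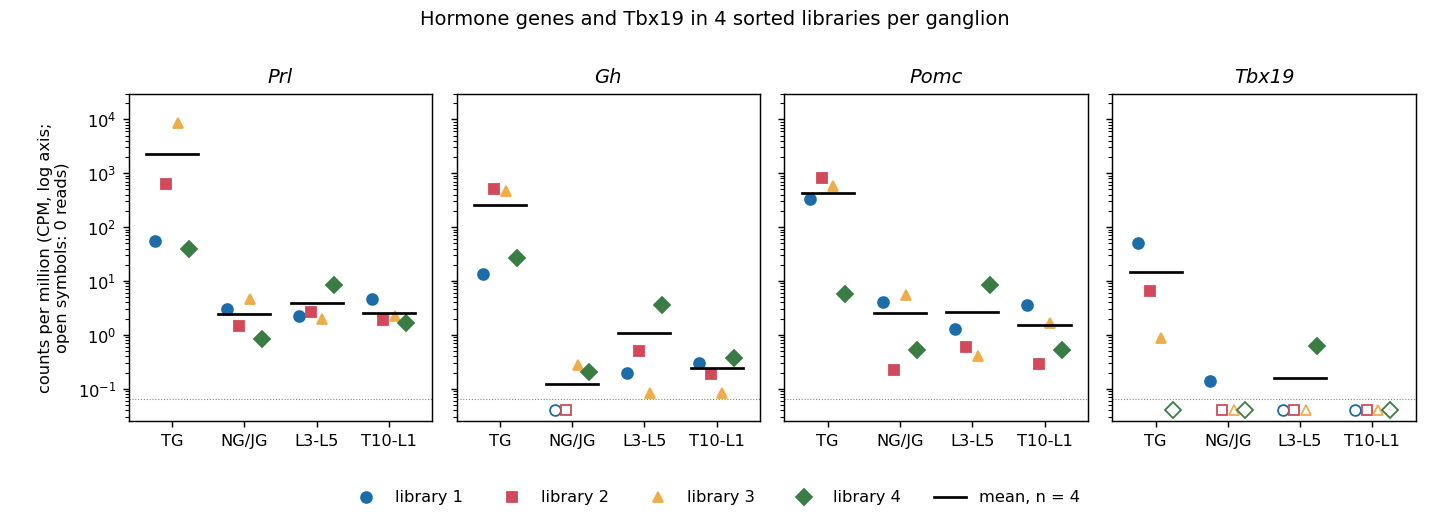
CPM (log axis) of Prl, Gh, Pomc and Tbx19 in each of the 4 libraries per ganglion. Symbols are libraries, open symbols under the dotted line are libraries with 0 reads, and black bars are means of 4, drawn where they lie above that line. For Prl and Gh all TG points lie above all others, for Pomc the TG point of library 4 at 5.62 CPM lies among the others, and Tbx19 steps down from 50.4 CPM in TG library 1 to 0 in TG library 4.

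Hormone reads did not keep a fixed proportion from one TG library to the next. Prl reads per Gh read were 4.16, 1.20, 18.3 and 1.47 in TG libraries 1 to 4. Pomc reads per Gh read were 24.9, 1.59, 1.27 and 0.213, a 117-fold range. Of the reads on these 3 genes together, Pomc made up 82.8% in library 1 and 42.0% in library 2, whereas Prl made up 89.0% in library 3 and 54.8% in library 4. Libraries 2 and 3 were the upper pair for all 3 genes and library 4 the lowest for Prl and Pomc, but Gh was lowest in library 1.

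Nor did Pomc and its lineage factor share an order. Pomc reads per Tbx19 read were 6.59 in library 1, 126 in library 2 and 680 in library 3, and library 4 had 32 Pomc reads and 0 Tbx19 reads. Tbx19 was highest in library 1, in which Pomc was only the third highest. Over the 12 other libraries Pomc made up 36.9% of 520 reads on the 3 hormones, inside the range of the 4 TG libraries. With 4 libraries no correlation was computed.

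**Figure D2:**
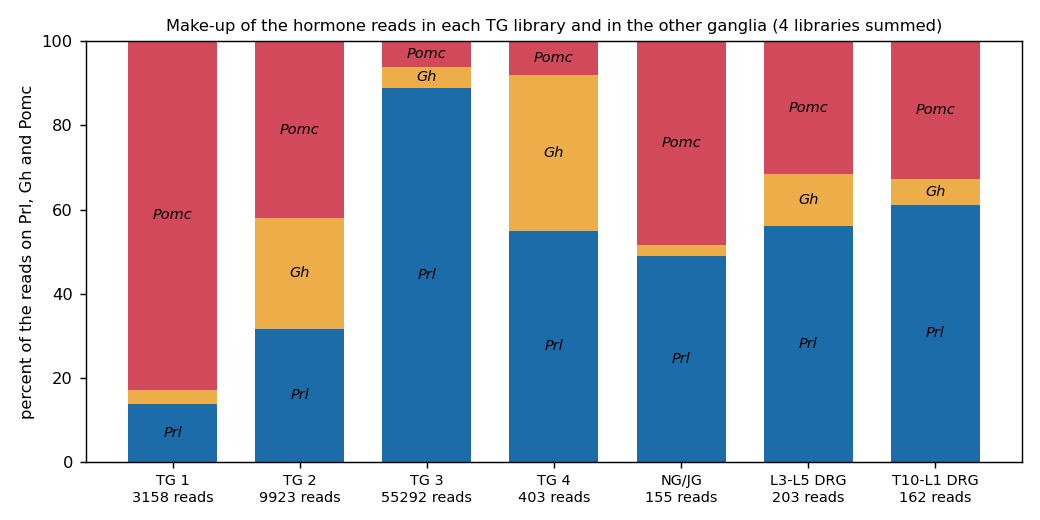
Percent of the reads on Prl, Gh and Pomc that lay on each gene, in TG libraries 1 to 4 and in the 4 libraries of each other ganglion summed, with the number of reads under each bar. Pomc fills 82.8% of TG library 1 and Prl 89.0% of TG library 3.

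Of 32 other pituitary lineage genes, 13 had 0 reads in all 4 TG libraries and 14 passed 3 reads in at least 1 of them. Among the 13 at 0 were Tshb and Fshb (the other beta subunits) and Pou1f1 (the lineage factor of lactotrophs and somatotrophs). Pitx1, Hesx1 and Otx2 (early pituitary factors) and Ghrhr, Gnrhr and Trhr (receptors of hypothalamic releasing hormones) were at 0 in TG as well. Tshb, Fshb, Pou1f1 and Otx2 had 0 reads in all 16 libraries, so that Prl and Gh were read in TG libraries without reads on the factor known to drive both genes in the pituitary. The absence is limited to 3 reads per library, or 0.381 to 0.590 CPM in TG.

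The lineage genes that were read came from single TG libraries or were read elsewhere too. Lhx3, a LIM factor of early pituitary, had 19 reads and Six6 had 27 in TG library 3, and both had 0 in the other TG libraries. Six3, a homeobox factor of forebrain and early pituitary, had 204, 0, 13 and 13 reads in TG libraries 1 to 4 and at most 5 in any other library. Gata2, a factor of gonadotrophs and thyrotrophs with other roles, had the highest mean of the list in TG, 10.8 ± 14.4 CPM (SD, n = 4), against 13.5 ± 19.7 (n = 12) elsewhere. Rbp4, a retinol carrier, stood at 4.53 ± 4.49 CPM in TG and 1.76 ± 3.66 elsewhere. Between 4 and 11 of the 32 genes passed 3 reads in a TG library, against 0 to 15 in the others, and L3-L5 DRG library 4 had the most. Summed over the list, TG libraries held 23.9 to 68.7 CPM and the others 0 to 166 CPM, so the groups overlapped.

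**Figure D3:**
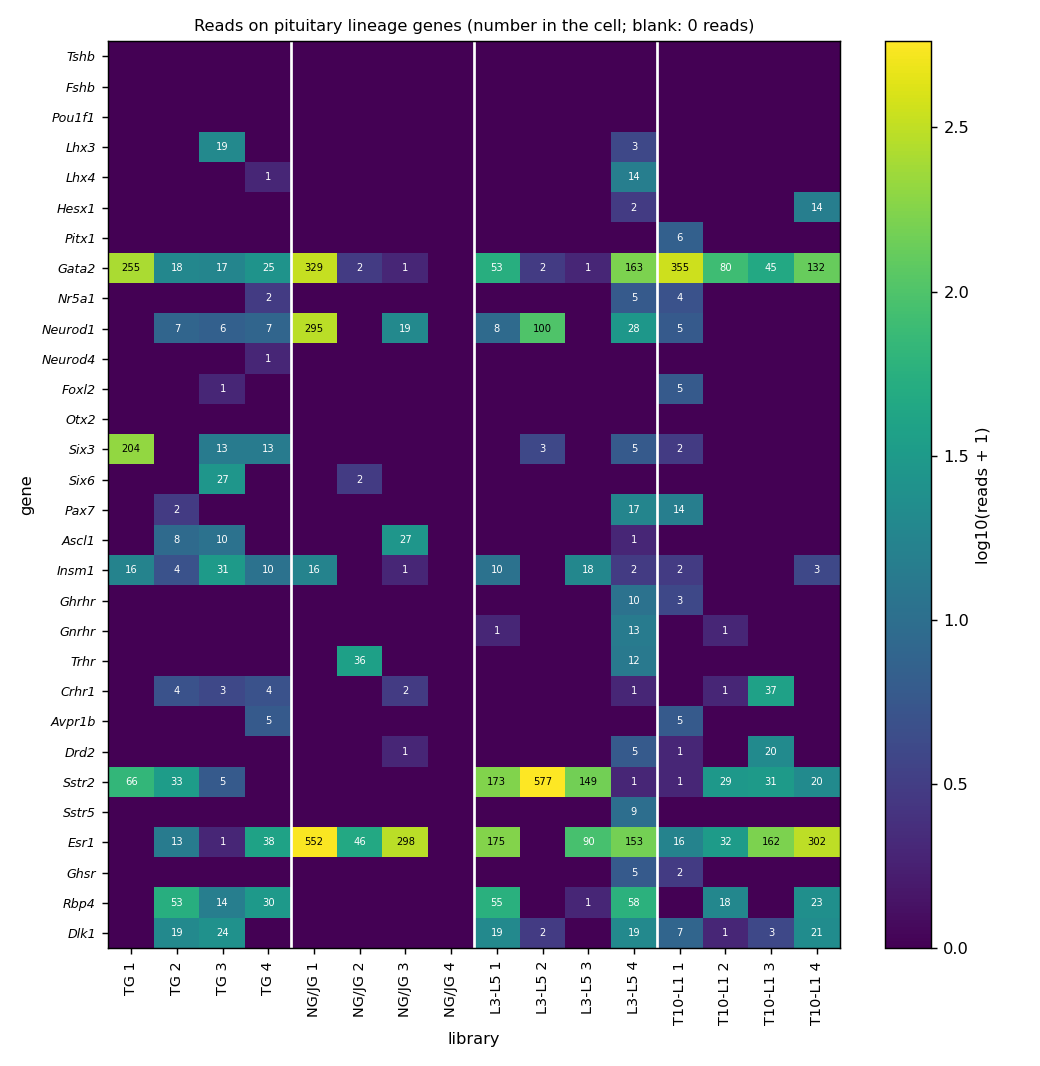
Reads on pituitary lineage genes (rows) in the 16 libraries (columns), coloured by log10(reads + 1), with the number of reads printed in each cell above 0. The rows of Tshb, Fshb, Pou1f1 and Otx2 are empty, and the column of L3-L5 DRG library 4 has the most genes above 3 reads, 15.

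None of the 32 genes was called by edgeR in any of the 8 comparisons, but only 2 to 7 of them had enough reads to be tested in each. Over all genes edgeR called 0% to 5.97% in these comparisons, so no call among so few genes says little about the list. The test was edgeR's quasi-likelihood test with Benjamini-Hochberg adjustment over all genes tested, and a gene was called at an adjusted p under 0.05. In TG against the 3 other ganglia 5.97% of 14236 genes were called, 4.91% higher and 1.06% lower in TG. Of the 32 lineage genes 7 had enough reads for that test, and 0 of these 7 were called by edgeR or by DESeq2. DESeq2 called 1 gene of the list, which edgeR's filter had removed. The 7 tested had a median log2 fold change of 2.58 beside 0.08 over all genes. This median was the value of Sstr2, which had a mean of 3.93 CPM in TG. The L3-L5 group had more Sstr2, 21.6 CPM, while the T10-L1 group (1.74) and NG/JG (0) had less. Sstr2, Rbp4 and Dlk1 had 0 reads in every NG/JG library, so their fitted values depend on the prior count. The median therefore does not show that the list was raised in TG. DESeq2 called 2 of the list in TG against T10-L1 DRG (15.4% of all genes) and 3 in TG against NG/JG (6.37%). It called 1 in NG/JG against T10-L1 DRG (5.25%), 1 in NG/JG against L3-L5 DRG (5.47%) and 2 in NG/JG against both (9.84%). Of these DESeq2 calls, only the 2 in NG/JG against both were of genes that edgeR had tested. The 26 prolactin family genes could not be tested in any comparison.

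Hypothalamic hormone genes were low in TG as well, and most of them were low in the other ganglia too. Of 11 such genes, 7 (Trh, Crh, Ghrh, Sst, Gnrh1, Kiss1 and Npvf) had 0 reads in all 4 TG libraries, and Oxt and Vip had 4 reads each in TG library 3 only. Adcyap1, which encodes the neuropeptide PACAP and is known in sensory neurons, was the exception with 4, 105, 194 and 64 reads, or 16.4 ± 14.0 CPM (SD, n = 4) against 121 ± 124 (n = 12) elsewhere. It was the only one of the list tested in TG against the 3 other ganglia, with 0 called by edgeR and 1 by DESeq2. DESeq2 also called 1 in TG against L3-L5 DRG. Over all genes DESeq2 called 11.2% and 11.3% in these comparisons. Low reads on this list were not particular to TG. NG/JG had 8 of the 11 genes at 0 throughout, T10-L1 DRG 4 and L3-L5 DRG 3. Genes never above 3 reads numbered 8 for TG, 8 for NG/JG, 5 for T10-L1 DRG and 7 for L3-L5 DRG. Vip, however, had 3214 reads in NG/JG library 3.

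The convertases did not follow the hormones. Pcsk1 (chr13:75227274-75269946, plus strand) encodes PC1/3, which makes corticotropin from POMC. It had 0, 6, 23 and 47 reads in TG libraries 1 to 4, the reverse of the order of Tbx19. TG library 1, with 2616 Pomc reads, had none on Pcsk1, and TG library 4, with the fewest Pomc reads, had the most. TG held 3.76% of all Pcsk1 reads in the series.

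Outside TG, Pcsk1 was high in single libraries. NG/JG libraries 1 to 4 stood at 22.1, 0.114, 168 and 0 CPM, L3-L5 DRG libraries at 4.18, 3.47, 32.0 and 1.90, and T10-L1 DRG libraries at 1.83, 1.62, 5.43 and 0. All 4 groups overlapped, and library 3 was the highest of its group in each ganglion other than TG. The mean of NG/JG, 47.6 ± 81.0 CPM (SD, n = 4), fell to 7.41 CPM without library 3.

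Pcsk2 (chr2:143371892-143642021, plus strand) encodes PC2, which cuts corticotropin further to alpha-melanotropin and releases beta-endorphin from beta-lipotropin. Its levels in TG libraries 1 to 4 were 81.7, 19.3, 33.0 and 47.4 CPM. NG/JG libraries stood at 40.6, 35.3, 77.5 and 0 CPM, L3-L5 DRG libraries at 70.2, 142, 232 and 21.3, and T10-L1 DRG libraries at 26.6, 36.7, 107 and 40.6. Pcsk2 was lowest in TG library 2, where Pomc was highest, and TG lay within the range of the other ganglia. By mean the order was L3-L5 DRG (116 ± 91.5 CPM), T10-L1 DRG (52.8 ± 36.8), TG (45.4 ± 26.8) and NG/JG (38.4 ± 31.7, SD, n = 4 each), and no neighbours in it differed beyond their spread.

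Other genes of prohormone processing and of dense-core granules were read in all 4 kinds of ganglion, except Cpz, a carboxypeptidase, at 0 in all NG/JG libraries. All 23 of the list passed 3 reads in some TG library, led by Ctsl, a lysosomal and granule protease, at 669 ± 316 CPM, Cpe, the carboxypeptidase that trims the convertase products, at 396 ± 9.17, and Pcsk1n, which encodes the PC1/3 inhibitor proSAAS, at 205 ± 95.2 (SD, n = 4). The same genes stood at 763 ± 357, 873 ± 360 and 253 ± 196 CPM over the 12 other libraries. All 23 were tested in TG against the 3 other ganglia, 0 were called by edgeR (4 had an unadjusted p under 0.05) and 1 was called lower by DESeq2, and their median log2 fold change was 0.21 beside 0.08 over all genes. DESeq2 called 2 of the list in TG against T10-L1 DRG, 3 in TG against L3-L5 DRG and 2 in TG against NG/JG. Over all genes it called 15.4%, 11.3% and 6.37% in these, and 11.2% in TG against the 3 other ganglia. TG library 1 lacked reads on some of them, with 2 on Scg5, which encodes the PC2 chaperone 7B2, against 209 to 799 in the other TG libraries.

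The 2 receptors differed in where they were read. Prlr (chr15:10106993-10303504, plus strand) had few reads anywhere. TG libraries 1 to 4 held 0, 9, 21 and 0 reads, NG/JG libraries 2, 2, 0 and 0, L3-L5 DRG libraries 28, 88, 1 and 32, and T10-L1 DRG libraries 4, 0, 25 and 38. By mean the order was L3-L5 DRG (4.57 ± 3.90 CPM), T10-L1 DRG (1.38 ± 1.31), TG (1.34 ± 1.72) and NG/JG (0.126 ± 0.147, SD, n = 4 each), and neighbours in it overlapped. No NG/JG library passed 3 reads, whereas 3 libraries of each DRG level and 2 of TG did. Within TG the receptor and its ligand were both highest in library 3, with 21 reads on Prlr and 49211 on Prl.

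Ghr (chr15:3267760-3533492, minus strand) was read in 15 of 16 libraries. TG libraries 1 to 4 stood at 28.6, 20.3, 15.5 and 8.78 CPM, NG/JG libraries at 17.8, 0, 141 and 54.4, L3-L5 DRG libraries at 23.9, 22.5, 30.9 and 23.7, and T10-L1 DRG libraries at 62.7, 50.8, 34.4 and 26.5. TG had the lowest mean, 18.3 ± 8.32 CPM, before L3-L5 DRG (25.3 ± 3.81), T10-L1 DRG (43.6 ± 16.3) and NG/JG (53.3 ± 62.7, SD, n = 4 each), and neighbours in this order overlapped. Library 3 set the place of NG/JG, whose mean was 24.1 CPM without it. TG library 1 had the most Ghr and the fewest Gh reads of the 4 TG libraries. Per exon length the mean of Ghr in TG, 2.02 RPKM, was above that of Prlr, 0.0868 RPKM.

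**Figure D4:**
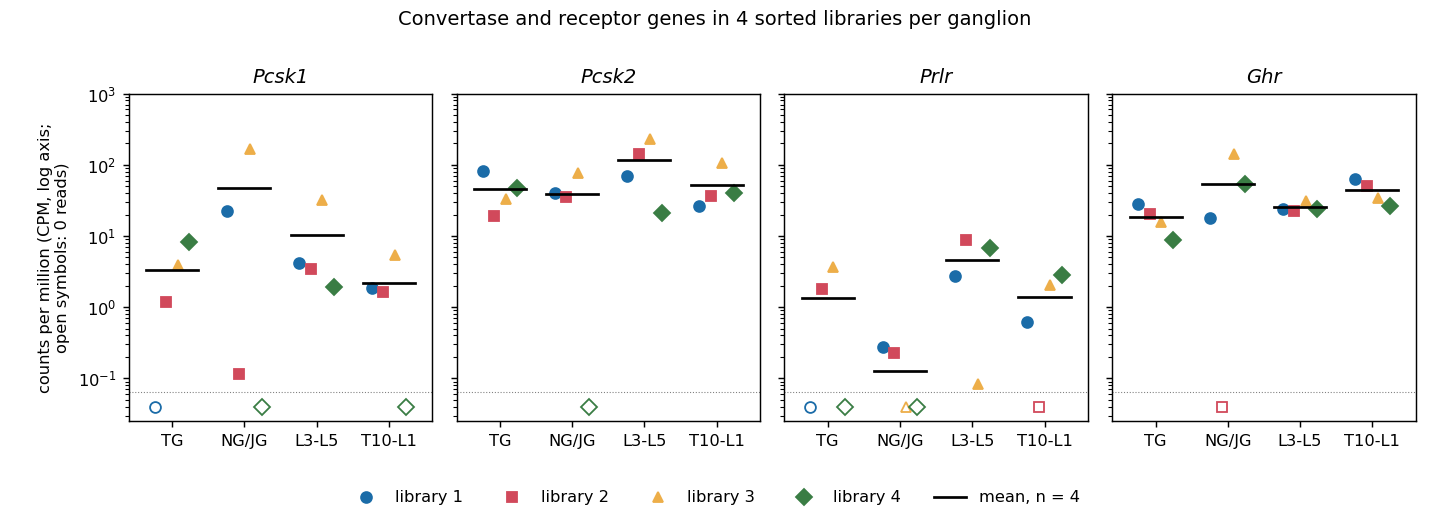
CPM (log axis) of Pcsk1, Pcsk2, Prlr and Ghr in each of the 4 libraries per ganglion. Symbols are libraries, open symbols under the dotted line are libraries with 0 reads, and black bars are means of 4. The groups overlap for all 4 genes, and no NG/JG library of Prlr lies above 0.278 CPM.

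Ganglia other than TG were also compared by test. The genes were chosen with their values in these ganglia known, so the p-values are not independent of the choice. Between NG/JG and T10-L1 DRG 0.0322% of 12430 genes were called, between NG/JG and L3-L5 DRG 0% of 12240, between L3-L5 and T10-L1 DRG 0% of 13550, and between NG/JG and both DRG levels 0.549% of 13847. The comparisons share libraries, so they are not independent. Of the 10 genes, 5 or 6 passed the filter on low counts in each comparison and none was called by edgeR. By DESeq2 Prlr alone was called, in NG/JG against L3-L5 DRG, where edgeR's filter had removed it, and in NG/JG against both DRG levels. Over all genes DESeq2 called 5.47% and 9.84% in these comparisons. An unadjusted edgeR p under 0.05 was found for 0, 0, 1 and 1 of them, and 739 genes of all those tested between NG/JG and L3-L5 DRG and 822 between the DRG levels reached it, so the counts of 0 above stand beside 810 and 78 genes called by DESeq2.

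Few Prlr reads in NG/JG were known when the gene was chosen, so its values there are a description that no test supports. In NG/JG against both DRG levels its fitted log2 fold change was -4.13 (SE 1.79). As no NG/JG library passed 3 reads, the fitted value depends on the prior count. With NG/JG taken at 3 reads per library, the mean of the 8 DRG libraries was at least 8.03-fold higher, yet L3-L5 DRG library 3 with 1 read and T10-L1 DRG library 2 with 0 overlapped with NG/JG.

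Ghr came closest between the DRG levels. L3-L5 against T10-L1 DRG gave a log2 fold change of -0.81 (SE 0.36), with an unadjusted edgeR p of 0.0467 and an adjusted p of 0.790. Pcsk1 in NG/JG against both DRG levels gave 3.35 (SE 1.57) with an adjusted edgeR p of 0.359, and 0.70 without NG/JG library 3. Pcsk2 gave -0.98 (SE 1.04, adjusted edgeR p 0.791), Prl -0.25 (SE 0.95, 0.958) and Pomc 0.44 (SE 1.22, 0.944) there. None of these differences was called after adjustment over all genes tested, and of them Ghr alone had an unadjusted edgeR p under 0.05.

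**Figure D5:**
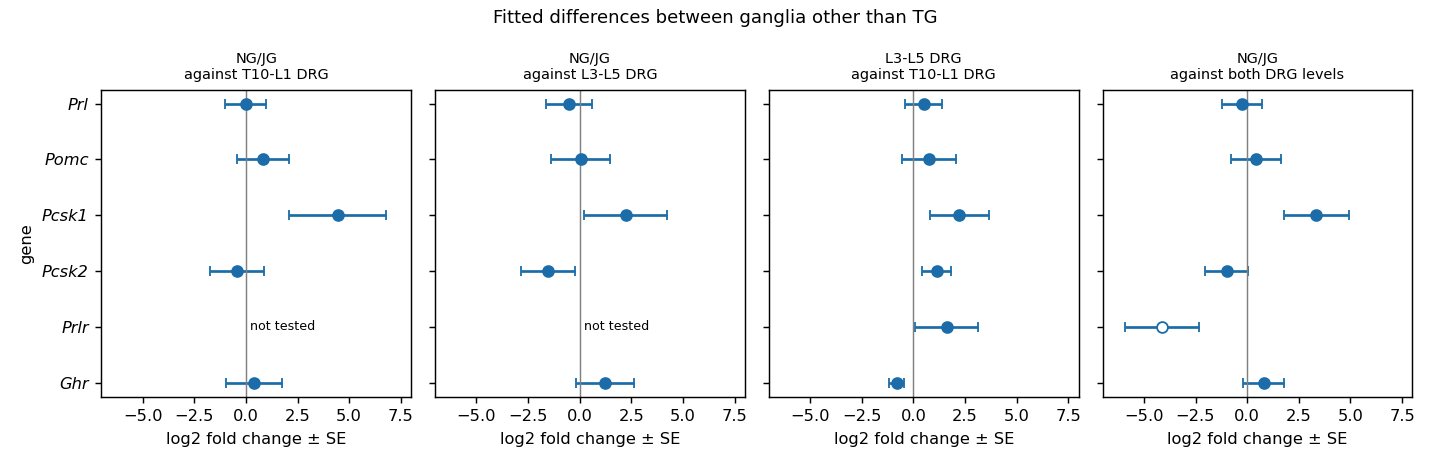
Log2 fold changes with standard errors from edgeR for Prl, Pomc, Pcsk1, Pcsk2, Prlr and Ghr in the 4 comparisons without TG, first-named group over second. The open symbol marks Prlr against NG/JG libraries that held at most 2 reads. In the first 2 comparisons Prlr was not tested. Prlr at -4.13 and Pcsk1 at 3.35 lie farthest from 0 in NG/JG against both DRG levels.

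Signalling genes downstream of the receptors are no part of the chosen 10 and were compared with TG by test. This list too was chosen with earlier results of these data known, so its p-values are not independent of the choice. Of 33 genes of GH and PRL receptor signalling, 32 were tested in TG against the 3 other ganglia and 1 was called, lower in TG, beside the 5.97% called over all genes. It was Stat3, a transcription factor that many cytokine receptors activate. TG libraries 1 to 4 stood at 208, 96.0, 108 and 96.6 CPM, and the 12 other libraries at 288 to 1008 with a median of 492. Every TG library lay below every other library. The log2 fold change was -1.86 (SE 0.38) with an adjusted edgeR p of 0.00692, and over its alternatives the adjusted p ran from 4.03e-05 to 0.0670.

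DESeq2 called 3 genes of the list lower in TG against the 3 other ganglia, beside 11.2% of all genes called in either direction. By edgeR Stat3 was also the only one of the list called in TG against T10-L1 DRG, where 5.87% of 12914 genes were called, at -1.72 (SE 0.35) with an adjusted edgeR p of 0.0285. DESeq2 called 4 of the list lower in it, beside 15.4% of all genes called in either direction. The edgeR call of Stat3 was lost when any of TG libraries 2 to 4 or of T10-L1 DRG libraries 1 to 3 was left out, with adjusted p up to 0.106. In TG against NG/JG edgeR called 0.051% of 11769 genes and none of the list. In TG against L3-L5 DRG it called 0% of 12900 genes and none of the list, beside 2343 genes at an unadjusted p under 0.05. DESeq2 called 2 of the list in TG against NG/JG, beside 6.37% of all genes. It called 3 in TG against L3-L5 DRG, beside 11.3% of all genes (1612). Of the other leading genes of the list, Socs3, a feedback inhibitor of cytokine receptors, stood at 319 ± 368 CPM in TG and 1192 ± 822 elsewhere, and Sirpa at 99.95 ± 123 and 109 ± 113.

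Receptors of the other pituitary hormones and of POMC peptides gave no call in any of the 8 comparisons by edgeR. It tested 4 to 8 of them in each, and called 0% to 5.97% over all genes. By DESeq2 1 was called in TG against NG/JG, 2 in NG/JG against L3-L5 DRG and 1 in NG/JG against both DRG levels. Over all genes DESeq2 called 6.37%, 5.47% and 9.84% there. Of 16 genes in the files, 13 passed 3 reads in some TG library, led by Atrn, an accessory protein of melanocortin signalling, at 74.8 ± 8.22 CPM in TG and 83.9 ± 23.6 elsewhere. Its relative Atrnl1 stood at 11.5 ± 7.54 and 43.9 ± 45.3 CPM. Oprm1, the mu opioid receptor that beta-endorphin binds, had 291, 0, 7 and 3 reads in TG libraries 1 to 4. In TG against the 3 other ganglia 8 of the 16 were tested, with a median log2 fold change of -1.17.

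Genes whose levels across the 16 libraries were most like those of each member are named by Pearson's r of log2(CPM + 1), a description over libraries that differ in ganglion, depth and cell make-up. For Prl, Gh and Pomc these r rest on the difference of TG from the other libraries that chose the genes, and r among the 3 is therefore not given. Pomc was most like Cyp2f2, a cytochrome P450 (r = 0.95), Krt18, a keratin of simple epithelia (0.94), Lipc (0.88), Lat (0.87) and Slc22a6 (0.87). Cyp2f2 had 628, 118, 387 and 15 reads in TG libraries 1 to 4, all above every other library, and Krt18 had 455, 66, 195 and 0.

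Prl was most like Zmynd17 (0.92), Mia1 (0.90), Klk6 (0.89), Cyp2f2 (0.89) and Mrpl42 (0.88), and Gh was most like Dynll1 (0.94), Mdk, a growth factor (0.94), BC048507 (0.93), Rpl23 (0.93) and Polr2f (0.92). Among the convertases, Pcsk1 was most like Ptprn2 (0.92), Celf3 (0.91) and Gprin1 (0.86), and Pcsk2 was most like Susd2 (0.96), Kcnt1 (0.94) and Tmem151a (0.94). Genes like Prlr were 5033406O09Rik (0.85) and Mst1r (0.83), and Ghr was most like 2610301G19Rik (0.92), Dpp9 (0.91) and Maged2 (0.91). Over the 16 libraries the r of Prl with Pcsk1, Pcsk2, Prlr and Ghr lay between -0.12 and 0.20, and these too rest on the TG difference of Prl. Over the 12 libraries without TG they were 0.38, 0.25, 0.37 and 0.26, with only 8 to 40 Prl reads per library.

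Markers of other cell types were read beside the hormones in TG. Oligodendrocyte markers, known from the central nervous system, summed to 13748, 2622, 3296 and 2633 CPM in TG libraries 1 to 4, with Olig2 lowest (0.427 ± 0.560 CPM), against 1710 to 7655 CPM in the other libraries. In TG against the 3 other ganglia 3 of the 8 tested rose, beside 4.91% higher over all genes tested, Mog by 6.95, Mobp by 4.26 and Ermn by 6.22 on the log2 scale, and for each the groups overlapped. Fibroblast and meningeal markers summed to 5735 to 9876 CPM in TG and 579 to 13389 elsewhere, with Dcn highest and Aldh1a2 lowest in TG. Of 10 tested 2 rose, Ptgds by 6.36 and Slc6a13 by 5.24 on the log2 scale, each higher in all 4 TG libraries than in all others. The study had already reported Ptgds as higher in TG from these libraries, so its rise is a description and no independent result. Library 1, the highest of TG in oligodendrocyte markers, was the lowest in Gh and the highest in Tbx19.

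The other marker lists are read against the same background in that comparison, 4.91% higher and 1.06% lower. Sensory neuron markers summed to 1111 to 4214 CPM in TG (Uchl1 highest, Scn9a lowest) and 1746 to 13247 elsewhere, and 1 of 12, Nefh, rose. Schwann cell markers summed to 23948 to 55354 CPM in TG (Mbp highest, Egr2 lowest) and 8322 to 47174 elsewhere, with 2 of 7, Mbp and S100b, risen. Satellite glia markers summed to 33040 to 64149 CPM (Apoe highest, Cadm2 lowest) and 13415 to 46035 elsewhere, where Fabp7 and Apoe rose and Ptprz1 fell of 8 tested. These glial transcripts were thus abundant in every sorted library.

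In TG the sums of blood and vessel markers lay below those of Schwann cell and satellite glia markers, but macrophage markers overlapped the range of sensory neuron markers. Macrophage markers summed to 1782 to 6640 CPM in TG (C1qb highest, Emr1 lowest) and 16.6 to 12724 elsewhere, and endothelial and mural markers to 123 to 837 CPM (Cldn5 highest, Kcnj8 lowest) and 40.3 to 2044, with none called in either list by edgeR in TG against the 3 other ganglia. Lymphocyte markers summed to 8.08 to 34.4 CPM in TG and 0 to 27.3 elsewhere, with Cd3e at 0 in TG and Cd3g risen. Neutrophil markers summed to 0.127 to 44.2 CPM in TG and 0.455 to 1082 elsewhere, with Camp and Elane at 0 in TG and Ngp fallen. The part of these cells in the hormone reads was not tested.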

How the data were processed

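The authors sequenced SMART-seq2 libraries of TdTomato+ neurons as 50 base single reads and, per the submitters' processing notes and the study's methods, used bcl2fastq, TopHat2 with default settings and mm9, and HTSeq. The deposited files hold counts, whole reads per gene. Whether strand was used is not given in the sources used here. Rows that name no gene were left out of library sizes. The 10 genes and the gene lists were chosen with earlier results of these data known.

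CPM were computed from reads on genes, and RPKM with exon lengths from GENCODE M1 (mm9). edgeR 4.0.16 (R 4.3.3; TMM, filterByExpr, quasi-likelihood test, Benjamini-Hochberg) was fitted to the libraries of each comparison, with DESeq2 1.42.0 as an alternative. The steps were tested on simulated data. No test was made of the 10 genes in comparisons with TG. Tbx19, Cga and Lhb passed the filter in none of the comparisons without TG, nor did Gh, and DESeq2 gave no adjusted p for Pcsk1 between the DRG levels. Alternatives were size factors of DESeq2 (RLE), no filter, a shared fit of 16 libraries, a replicate block, and leaving out each library. For Stat3 they were added after seeing the data. No libraries of a group agreed within sampling noise (lowest chi-square per gene 29.9).

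Named genes were all 10 members, the called genes of each list (at most 5) and its 3 highest in TG, the 5 or 3 genes most like each member, and the highest and lowest gene of each marker list in TG. Other genes of lists were named after their values were seen. Asip, Ncmap and Adgre1 had no row under these symbols and were not analysed here. Some genes that the rule names are not reported here.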

Additional observations from a re-analysis of the deposited data

Results flagged for a closer look

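A library was set aside for a closer look by its gap to the nearest of the other 3 of its ganglion. The gap, over the range of the 4 libraries, had to be above Dixon's 95% critical value. For normally distributed values chance gives this in about 1 of 20 groups, but whether these CPM are so distributed was not checked. Of 28 sets of 4 CPM values, 9 had such a library, a count that can therefore not be measured against that rate.

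In TG, Prl stood at 8455 CPM in library 3 against at most 619 in the others, Tbx19 at 50.4 CPM in library 1 against at most 6.49, and Lhb at 1.03 CPM in library 3 against 0.

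In L3-L5 DRG, library 4 stood out for all 3 hormones, with Prl at 8.45 CPM against at most 2.68, Gh at 3.59 CPM against at most 0.496, and Pomc at 8.45 CPM against at most 1.26. Library 3 stood out for Pcsk1 at 32.0 CPM against at most 4.18 and for Ghr at 30.9 CPM against 22.5 to 23.9. In NG/JG, library 3 stood out for Pcsk1 at 168 CPM against at most 22.1.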

How the results depend on the processing

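Counts of called genes over all genes tested moved more than the members did. With DESeq2 they were 2198 (TG against T10-L1 DRG, 758 by edgeR), 1612 (TG against L3-L5 DRG, 0), 855 (TG against NG/JG, 6), 874 (NG/JG against T10-L1 DRG, 4), 810 (NG/JG against L3-L5 DRG, 0), 78 (L3-L5 against T10-L1 DRG, 0), 1461 (NG/JG against both DRG levels, 76) and 1620 (TG against the 3 other ganglia, 850). With all 16 libraries in 1 fit the first 5 were 238, 206, 484, 54 and 83. Without the filter on low counts they were 427, 39, 56, 9 and 2, and 467 for TG against the 3 other ganglia. Leaving out 1 library gave ranges of 0 to 3583, 0 to 2038, 1 to 325, 1 to 5, 0 to 2, 0 to 0, 0 to 346 and 108 to 1382 in the order above, and in the comparisons with TG the highest count came without TG library 1. NG/JG against both DRG levels gave 346 genes without NG/JG library 1 and 0 without T10-L1 DRG library 2, and TG against the 3 other ganglia gave 108 without TG library 2. The cause was not tested.

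Same-numbered libraries of different ganglia correlated at -0.117 to 0.169 over 24 pairs, after the group mean of each gene was taken off. Differently numbered libraries were not correlated for comparison, so whether replicate numbers pair the samples cannot be decided from these values. A replicate block gave 0, 1, 0 and 7 genes in TG against T10-L1 DRG, TG against NG/JG, NG/JG against T10-L1 DRG and NG/JG against both DRG levels, and 615 in TG against the 3 other ganglia. Under it Stat3 had an adjusted p of 0.0934 against T10-L1 DRG.

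Of 309 refits of the 22 fold changes of the members that edgeR tested, 308 kept the side of the threshold and 1, Prlr with DESeq2 in NG/JG against both DRG levels, passed it. DESeq2 also called Prlr in NG/JG against L3-L5 DRG, which edgeR did not test. Leaving out 1 TG library gave 238 to 3043 CPM for Prl, 167 to 334 for Gh and 307 to 578 for Pomc. Stat3 lost its call in 3 of 21 refits against the 3 other ganglia and in 7 of 13 against T10-L1 DRG, and kept its direction in all. By Spearman's rank 0 of 5 genes most like Prl, 1 of 5 for Gh and 0 of 5 for Pomc were the same. Depth limits an absence to 0.225 to 0.633 CPM.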
